A study of Mus musculus with 4 samples.

Results

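The genes described here encode the dynein arms, radial spokes, central pair and associated parts of the axoneme, the motile core of the sperm tail. They are a list of 54 genes, chosen by name for these roles, with earlier results of these data known. Of these, 41 stood in the tables under the listed symbol and 8 under an older symbol of the same gene in RefSeq, which gives 49 genes of 22552 symbols in all. The older symbols are those of 7 dynein heavy chains (Dnahc1, Dnahc2, Dnahc6, Dnahc7b, Dnahc8, Dnahc10 and Dnahc17) and of Dnaaf3 (6030429G01Rik). Dnah3, Dnah7a, Dnah12, Dnaaf2 and Rsph10b matched no row and were not analysed here. The heavy chains are named here by their current symbols, Dnah1 and so on.

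The sperm tail is built around an axoneme, a ring of microtubule doublets around a central pair of microtubules. Outer and inner dynein arms on the doublets are the motors of beating. Radial spokes and the central pair relay control to those arms, and the nexin-dynein regulatory complex links neighbouring doublets. Docking proteins seat the outer arms, and cytoplasmic assembly factors fold and pre-assemble the arms before they enter the tail. Round spermatids begin to extend this structure soon after meiosis, and mutations in many of these genes cause immotile or malformed sperm tails.

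Transcripts were sequenced from haploid cells that were sorted after Hoechst staining from testes of mice at 23 days after birth. There were 2 libraries from Sox30 knockout mice, with background strain labels DBA/C58/ICR (library 1) and DBA/C60/ICR (library 2), and 2 from wild-type mice, labelled DBA/C57/ICR (library 1) and DBA/C59/ICR (library 2). The numbers in these labels rise in the order of the samples, and whether they name real strains is unknown. If they do, strain cannot be told apart from genotype or library. Sox30 encodes a SOX-family transcription factor, and which part of the gene was removed is not given in the labels. The comparison asks which transcripts of these cells differ in the absence of Sox30, in mice whose most advanced haploid cells are step 3 round spermatids according to the design text. Levels are FPKM, fragments per kilobase of transcript scaled to the mapped total of each library, so levels of different genes can be compared per length. Whether the paired libraries of a genotype derive from different animals is not stated in the labels, and the spread that enters the p-values may therefore be technical.

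Sox30 itself stood at 1.46 and 3.16 FPKM in the knockout pair, against 11.4 and 16.2 FPKM in the wild-type pair (log2 change -2.19, SE 0.43, BH-adjusted p = 0.0219 in limma). Taking the depth of wild-type library 1 as 1, steps between the lowest values put the depth of the other libraries at 1.24 and 1.16 (knockout libraries 1 and 2) and 1.39 (wild-type library 2); the absolute depth is unknown. At the threshold used for all genes, a limma adjusted p under 0.05, 8 of the 12 round spermatid markers fell and 0 rose, with summed levels of 1408 and 992 FPKM in the knockout pair and 3017 and 2783 FPKM in the wild-type pair. Across all genes tested 13.4% fell and 1.95% rose at that threshold. All 7 elongating spermatid markers fell, with sums of 43.6 and 6.66 FPKM in knockout cells and 12971 and 7618 FPKM in wild-type cells. The design text names round spermatids as the most advanced haploid cells. Why the wild-type libraries hold elongating spermatid markers at such levels was not tested. Of 13 pachytene spermatocyte markers 1 fell. Among these 13, 11 log2 changes were negative (5455 of all 9124 genes tested), with a median of -0.32 (-0.23 over all genes). The sums were 6009 and 5669 FPKM in knockout cells and 5765 and 4832 FPKM in wild-type cells. Most of each sum was Ldhc, at 5186 and 5056 FPKM in knockout cells and 5002.5 and 4016 FPKM in wild-type cells. Markers of other testis cells also fell: 5 of 5 tested for spermatogonia (sums of 8.70 and 3.28 FPKM in knockout cells, against 48.3 and 46.5 FPKM in wild-type cells), 2 of 2 for macrophages or blood (8.26 and 0.283 FPKM against 242 and 131 FPKM), 2 of 2 for Leydig cells and 1 of 2 for peritubular cells. Stra8, Sohlh1 and Dmrt1 (spermatogonia) and Cyp17a1 (Leydig cells) were listed at 0 in both knockout libraries. They reached the mean level needed for testing through the wild-type libraries alone, so the filter favoured a fall for them. Of the 2 Sertoli markers tested 0 passed, with sums of 66.6 and 26.2 FPKM against 85.3 and 227 FPKM. These values move with genotype beside every result below, and their part in those results was not tested. In bulk samples, fewer cells of a type and less RNA per cell cannot be told apart.

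Axonemal genes are also strongly transcribed in multiciliated epithelia, such as those of the efferent ducts, so markers of such cells were examined. Mcidas, which switches on multiciliated cell formation, was listed at 0 in all 4 libraries, as were the epididymal lipocalins Lcn8 and Lcn9. Cdhr3 was listed at 0 in both knockout libraries and was at 0.0233 and 0.0168 FPKM in wild-type cells. Of the 7 markers 2 exceeded the level needed for testing: Cdhr4 was at 62.4 and 49.1 FPKM in knockout cells against 63.6 and 62.5 FPKM in wild-type cells, and Ccno was at 8.44 and 3.13 FPKM against 0.544 and 1.34 FPKM. The summed level of the 7 ranged from 52.2 to 70.8 FPKM in knockout cells and from 64.2 to 64.5 FPKM in wild-type cells.

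Promoter sequence was not used in the choice of members, and short motifs in it were counted. RFX factors, known regulators of ciliary genes, bind an inverted repeat called the X-box, and GTTGCC is one arm of that repeat. Windows of 300 bases, from 250 before to 50 after the gene start, were taken from RefSeq (GRCm38.p6, not the build named for the deposited files) for the 39 members found there with a row in the tables, Spag6 aside. GTTGCC, on either strand (GGCAAC on the other), was present in 13 of the 39 windows (33.3%) and in 12.5% of the 32851 windows of all genes. These are stretches from 5 such windows, in members of 4 substructures. They are not the matches closest to the gene start: that of Ccdc113 starts at -6 and that of Dnaic2 at -26. Each also holds the letters gttgct or agcaac, close to those of the other arm, which not every match does. The RFX half-site letters are in capitals, and 5′ to 3′ follows the gene.
Dnaic2, outer arm intermediate chain, chr11:114727381-114727410, plus strand: ccagggttgctaGGCAACtggtaaactccg
Ccdc103, assembly factor, chr11:102881216-102881245, plus strand: gcgccgttgctaGGCAACaatctctgttgc
Hydin, central pair, chr8:110266952-110266981, plus strand: tgcggttgctgtGGCAACagatggtaacaa
Spef2, central pair, chr15:9748843-9748872, minus strand: ccttagcaactgGTTGCCctgggcgacggg
Wdr52, inner arm tether, chr16:44394768-44394797, plus strand: ggacgttgctatGGCAACcgcagtaaacgg
The SOX-type letters ACAAT were present in 10 of 39 windows (25.6%) against 31.0% of all windows, ACAATGG in 0 against 3.66% and CCTTTGT in 2 (5.13%) against 5.88%, each on either strand; the longer of the first 2 contains the shorter one. The letters TGACG, part of the CRE bound by CREM, were present in 8 (20.5%) against 20.8%. A match is a run of letters and not a shown binding site. The 13 members with GTTGCC had a median log2 change of 0.04, from -1.39 to 1.51, and the 26 without it a median of -0.21, from -0.98 to 1.54. Armc4, the single member called in the main test below, is not among these 39.

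Axonemal transcripts were present in both genotypes, and 1 of the 48 that were tested passed the threshold. Genes with a mean of at least 1 FPKM were tested with limma on log2(FPKM + 1), 9124 in all, and 48 of the 49 members were among them. At a limma adjusted p under 0.05, 1 member fell (Armc4) and 0 rose, which is 2.08% of the 48. Across all genes tested 15.3% were called, 13.4% lower and 1.95% higher. At an unadjusted p under 0.05, 6 members were lower (12.5%, against 23.0% of all genes tested) and 4 higher (8.33%, against 8.30%). The median log2 change of the 48 was -0.18, beside -0.23 over all genes tested, and single members ranged from -1.93 to 1.54.

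Both knockout values lay below both wild-type values for 17 members (35.4%, against 38.6% of all genes tested) and above them for 11 (22.9%, against 22.2%). For 28 in all (58.3%, against 60.8% of all genes) the groups did not overlap, and for 20 they did. Groups that do not overlap were thus about as common among the members as among all genes.

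The intervals show what sizes of change these 4 libraries can resolve. The 95% interval of the log2 change, unadjusted, lay above -2 for 44 of the 48 members, so that a 4-fold fall on this scale was outside it. The same held for 6739 of the 9124 genes tested. It lay within 2-fold in either direction for 5 members (10.4%, against 8.57% of all genes), so for most members a 2-fold difference could not be told from none. The 4 members whose interval reached below -2 were Armc4, Dnah7b, Dnaaf3 and Spef2. The log2(FPKM + 1) scale understates the change of genes near or below 1 FPKM.

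**Figure D1:**
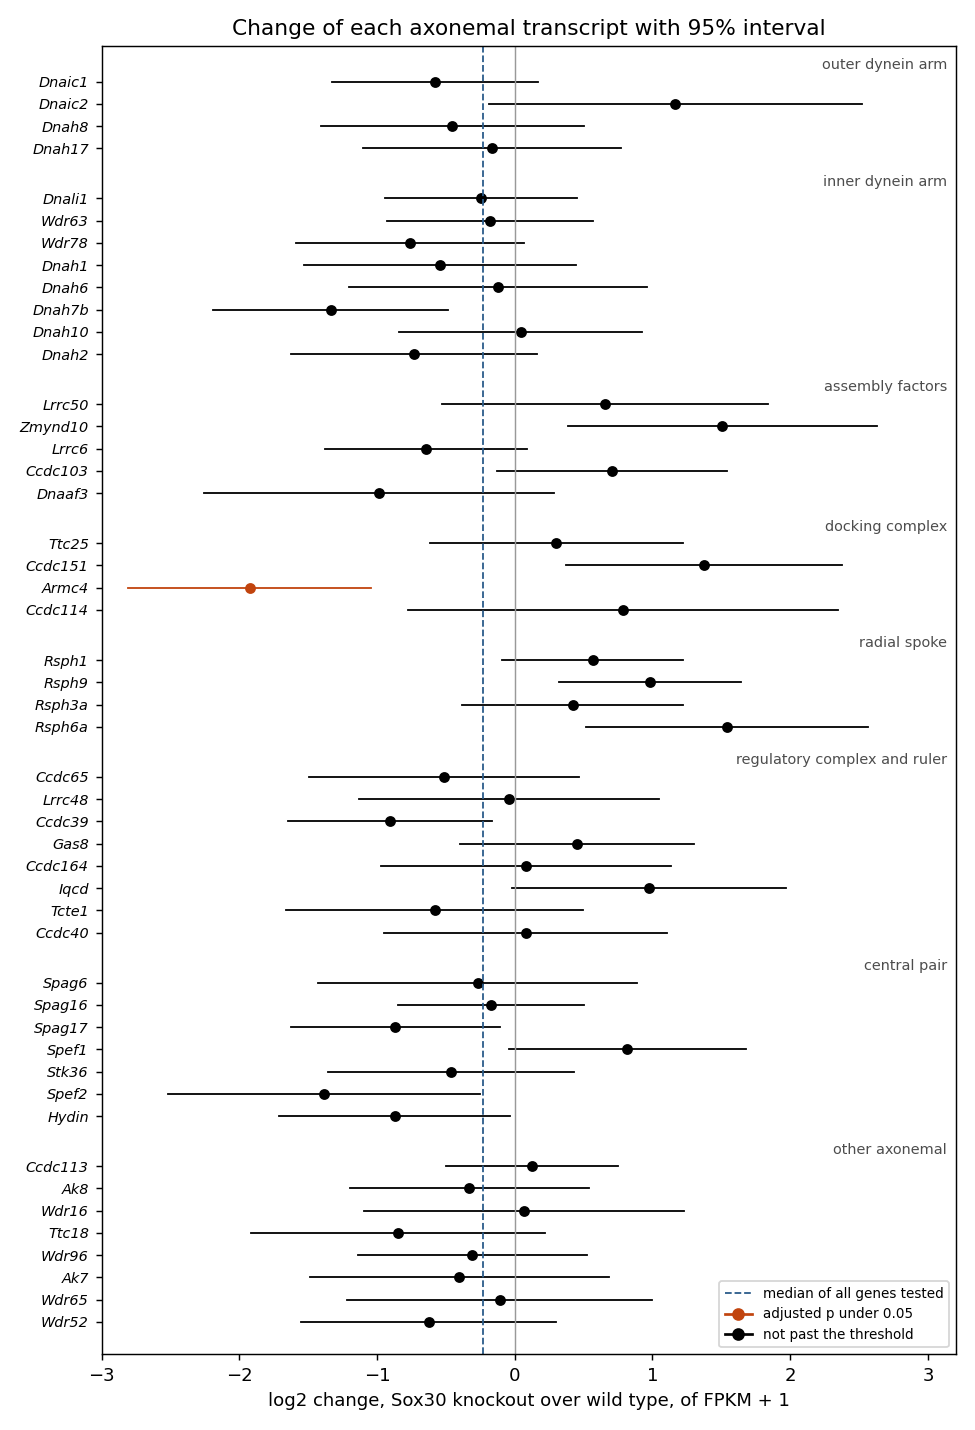
Log2 change of FPKM + 1 (horizontal axis, Sox30 knockout over wild type) of the 48 members tested, by substructure; points are limma estimates, bars are unadjusted 95% intervals and the dashed line is the median of all genes tested, -0.23. Armc4 is the single member past the threshold; all 4 radial spoke points lie to the right of 0.

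These counts rest on 2 libraries per genotype. Without wild-type library 1 the members called numbered 0 (386 genes fell and 0 rose over the whole table), and without wild-type library 2 they numbered 0 as well (0 and 0 over the whole table). Without knockout library 1, 10 members were lower (20.8%, against 33.7% of all genes) and 4 higher (8.33%, against 10.8%). Without knockout library 2, 4 were lower (8.33%, against 20.2%) and 8 higher (16.7%, against 9.84%). Armc4, Dnah7b and Ccdc39 were called lower, and Zmynd10, Ccdc151 and Rsph6a higher, in both of these last fits, where the lone knockout library was taken to vary as the wild-type pair did.

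Scaling moved the centre of the distribution. The deposited FPKM put the median of all genes at -0.23 and that of the members at -0.18; scaling by median ratios put them at -0.05 and 0.03, and matching of quantiles at 0.24 and 0.06. Among all genes the calls were 1221 lower and 178 higher as deposited, and 999 lower and 961 higher after quantile normalization. Relative to all genes, the members' median was therefore 0.05 and 0.07 higher in the first 2 cases and 0.18 lower after quantile normalization.

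**Figure D2:**
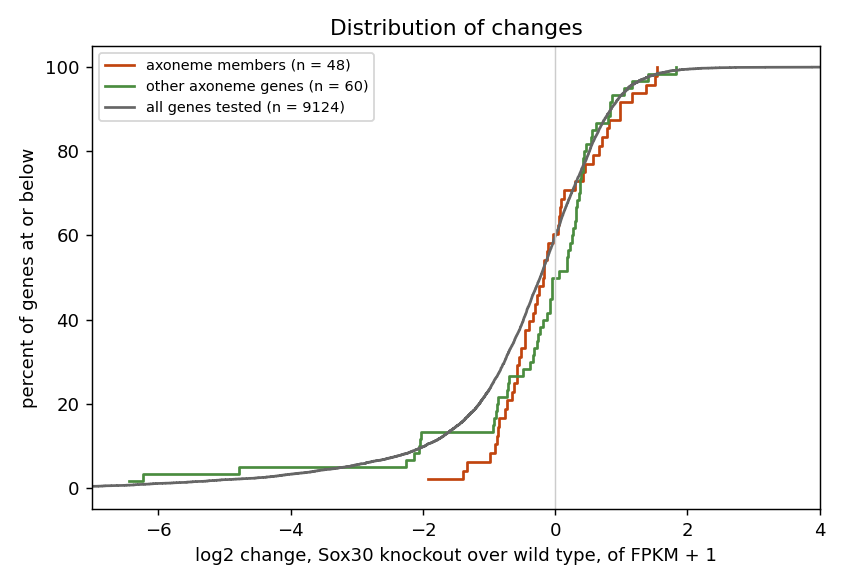
Cumulative percent of genes (vertical axis) at or below each log2 change of FPKM + 1 (horizontal axis, knockout over wild type), for the 48 axoneme members, 60 other axonemal genes and 9124 genes tested; the axis is cut at -7 and 4. The members span -1.93 to 1.54, without the long lower tail of all genes, and the other axonemal genes reach -6.44.

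Outer dynein arms carry the motor heavy chains Dnah8 and Dnah17 in sperm, on the intermediate chains Dnaic1 and Dnaic2. All 4 were tested and 0 passed, against 15.3% of all genes tested. Their median log2 change of -0.31 became 0.21 after quantile normalization. Dnah8 was at 8.03 and 13.1 FPKM in knockout cells and at 12.5 and 16.8 FPKM in wild-type cells, and Dnah17 at 2.49 and 3.58 FPKM against 2.84 and 4.25 FPKM. Both heavy chains overlapped between the genotypes. Dnaic1 was at 37.0 and 38.0 FPKM in knockout cells, against 48.7 and 65.3 FPKM in wild-type cells (log2 change -0.58, SE 0.30, BH-adjusted p = 0.251 in limma). Dnaic2 stood the other way, at 49.7 and 29.9 FPKM in knockout cells against 9.80 and 27.8 FPKM in wild-type cells (log2 change 1.17, SE 0.55, BH-adjusted p = 0.208 in limma). For Dnaic2 the lower knockout value and the higher wild-type value nearly touched, and its log2 change ran from 0.46 to 1.87 with 1 library left out.

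The heavy chains of airway and other motile cilia were close to absent, which sets the sperm form of the outer arm apart in level. Dnah5, the counterpart of Dnah8, was at 0.00329 FPKM and listed at 0 in the knockout pair and was at 0.0123 and 0.0384 FPKM in wild-type cells. Dnah9 and Dnah11, the counterparts of Dnah17, were listed at 0 in both knockout libraries and did not exceed 0.114 and 0.0410 FPKM in wild-type cells. The spoke head shows the same contrast: Rsph4a, the ciliary form, was listed at 0 in 3 libraries and at 0.0185 FPKM in wild-type library 1, whereas its paralog Rsph6a was at 26.8 FPKM or more in every library. Rsph4a was the member that fell under the filter and was not tested.

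**Figure D3:**
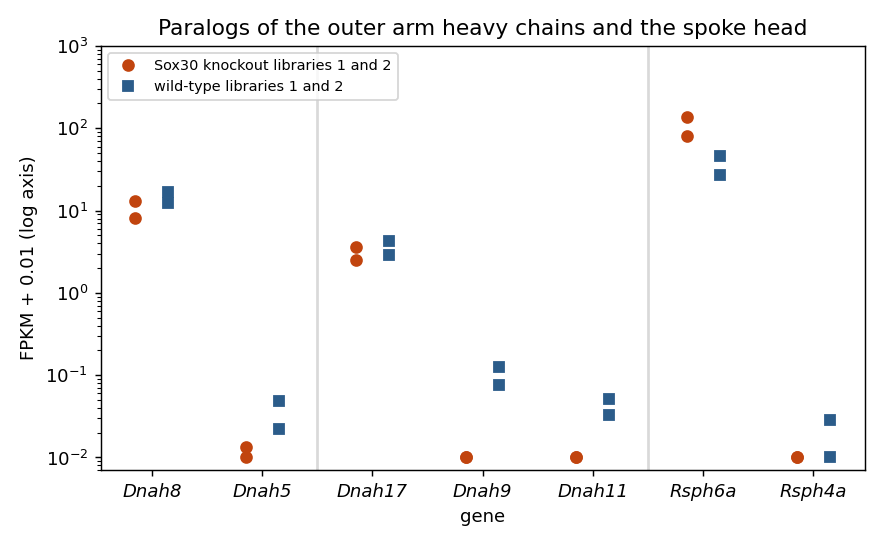
FPKM + 0.01 (vertical log axis) of outer arm heavy chains and spoke-head proteins in each library (circles, knockout; squares, wild type), with each sperm-type gene left of its ciliary paralogs. Dnah8, Dnah17 and Rsph6a lie above 2 FPKM in every library, and Dnah5, Dnah9, Dnah11 and Rsph4a at or below 0.114 FPKM.

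Inner dynein arms differ along the axonemal repeat, and each has its own heavy chain. Of 11 listed members 8 had a row and were tested, and 0 passed, against 15.3% of all genes tested. Of the 8 log2 changes 7 were negative, beside 5455 of all 9124 genes tested. Their median was -0.39, which became 0.03 after quantile normalization. Dnah2 and Dnah10 form the double-headed arm. Dnah10 was at 1.20 and 2.09 FPKM in knockout cells and 1.30 and 1.78 FPKM in wild-type cells, with overlap, while Dnah2 was at 0.849 and 0.679 FPKM in knockout cells and 1.35 and 2.64 FPKM in wild-type cells, without overlap (BH-adjusted p = 0.229 in limma). Wdr63 and Wdr78, the mouse counterparts of intermediate chains described in the alga Chlamydomonas for that arm, stood at 22.9 and 23.2 FPKM against 24.0 and 28.8 FPKM, and at 9.32 and 11.9 FPKM against 16.8 and 20.4 FPKM.

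Dnah7b, a single-headed inner arm heavy chain, had the largest negative change of the heavy chains. It was at 0.615 and 1.15 FPKM in knockout cells, against 3.67 and 3.74 FPKM in wild-type cells, a log2 change of -1.34 (SE 0.35, BH-adjusted p = 0.0548 in limma) and a ratio of mean FPKM of 0.238. Over 16 alternative settings its log2 change lay between -2.01 and -0.57 and its limma adjusted p between 0.00222 and 0.310, past the threshold in 5. Dnah7b has close copies in the genome, Dnah7a among them, so reads could be split between them and its value is uncertain. Dnah1, a heavy chain needed for normal tail structure in mouse and human sperm, was at 5.07 and 2.67 FPKM in knockout cells and 5.96 and 5.80 FPKM in wild-type cells. Dnah6 was at 1.40 and 3.61 FPKM against 2.27 and 3.01 FPKM. Dnali1, a light intermediate chain of these arms, was the most abundant inner arm transcript, at 121 and 94.8 FPKM in knockout cells and 124 and 130 FPKM in wild-type cells.

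**Figure D4:**
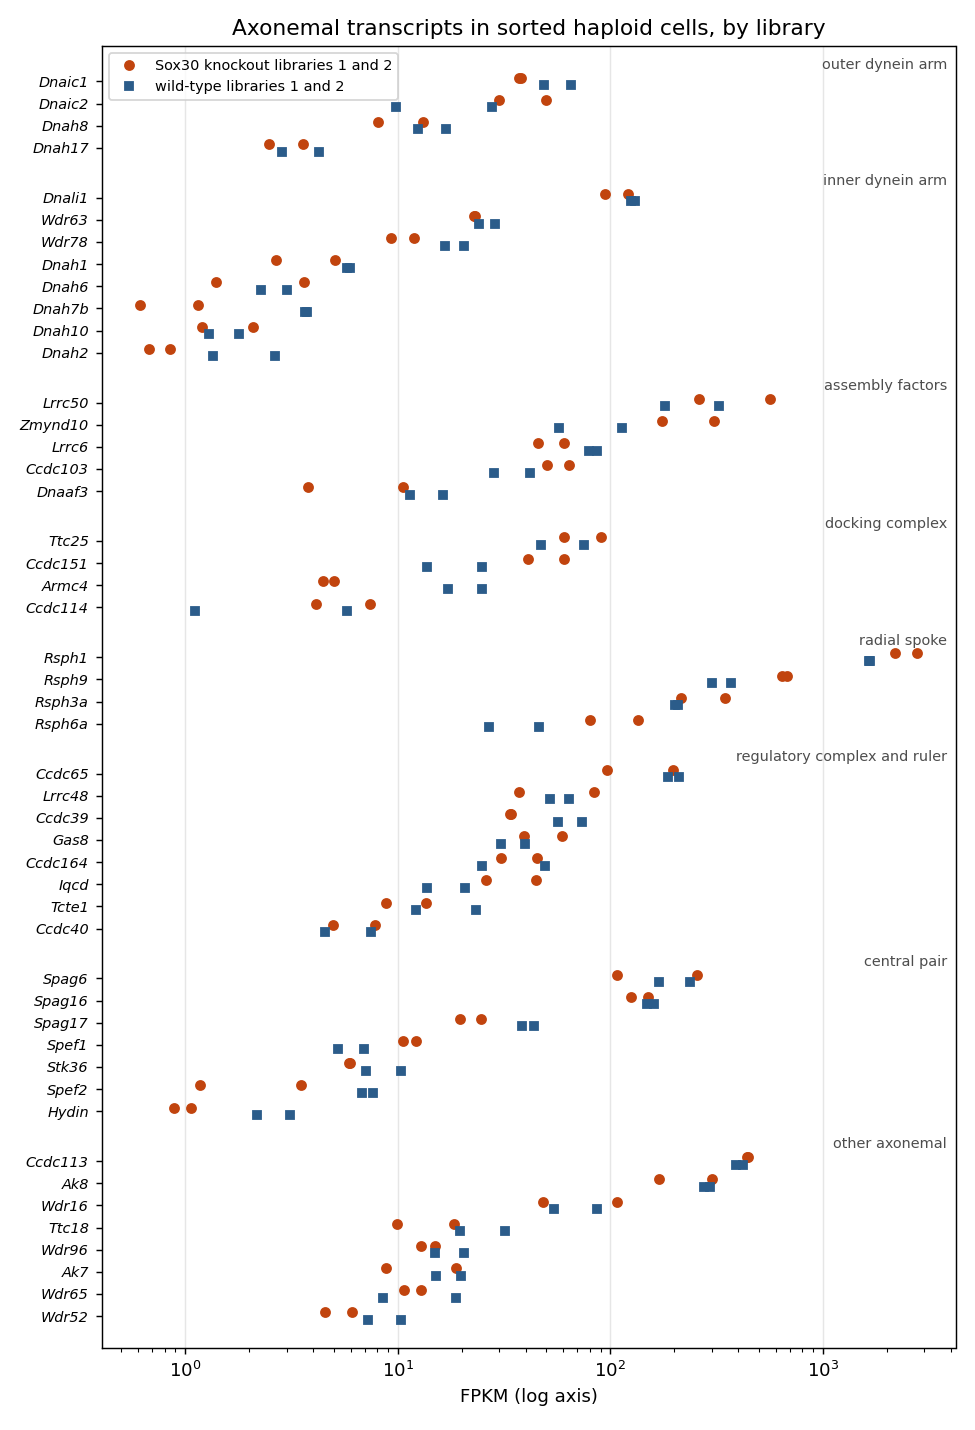
FPKM (horizontal log axis) in each library of the 48 members tested, by substructure and in falling order of mean FPKM within each; circles are the 2 knockout libraries and squares the 2 wild-type libraries. Rsph1 lies highest, at 1647 FPKM or more in every library, and Dnah2, Dnah10 and Hydin have the lowest means.

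Assembly factors act in the cytoplasm before the arms enter the tail. Of 6 listed, 5 were tested and 0 passed, against 15.3% of all genes tested. Their median log2 change of 0.66 stayed positive under every setting tried (0.10 to 0.88). Zmynd10, a co-chaperone adaptor for dynein heavy chains, was at 306 and 174 FPKM in knockout cells and 57.1 and 113 FPKM in wild-type cells, without overlap. Its log2 change was 1.51 (SE 0.45, BH-adjusted p = 0.0836 in limma). Over 17 alternative settings the limma adjusted p lay between 6.28e-07 and 0.471, past the threshold in 5, and the log2 change between 1.02 and 1.997. Ccdc103, which helps dynein attach to the axoneme, was at 64.2 and 50.4 FPKM against 42.0 and 28.3 FPKM. Lrrc50 (now Dnaaf1) was at 562 and 260.0 FPKM in knockout cells and 180 and 325 FPKM in wild-type cells, with overlap. The other 2 stood lower in knockout cells: Lrrc6 at 60.5 and 45.7 FPKM against 86.8 and 79.1 FPKM, and Dnaaf3 at 10.6 and 3.76 FPKM against 11.5 and 16.3 FPKM (log2 change -0.98, SE 0.52, BH-adjusted p = 0.249 in limma). With 1 library left out the log2 change of Dnaaf3 ran from -1.63 to -0.34.

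The docking complex held the single call. Armc4, an armadillo-repeat protein that holds outer arms on the doublets, was at 4.44 and 5.02 FPKM in the knockout pair and at 17.3 and 24.9 FPKM in the wild-type pair. Both knockout values lay below both wild-type values. Its log2 change was -1.93 (SE 0.36, BH-adjusted p = 0.0181 in limma), and the knockout mean was 0.225 of the wild-type mean. The call ended without wild-type library 1 (log2 change -2.18, BH-adjusted p = 0.219 in limma) and without wild-type library 2 (log2 change -1.67, BH-adjusted p = 0.283 in limma), as did that of Sox30 itself (BH-adjusted p = 0.295 in limma and 0.357). It stood in each other setting tried, whereas that of Sox30 was also lost with no filter on low values (BH-adjusted p = 0.0660 in limma).

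Armc4 differed from its partners in the same complex. Ccdc151 was at 60.4 and 40.9 FPKM in knockout cells, against 13.8 and 24.9 FPKM in wild-type cells, a log2 change of 1.38 (SE 0.41, BH-adjusted p = 0.0794 in limma). Over 17 alternative settings the limma adjusted p lay between 5.71e-05 and 0.428, past the threshold in 5. Ttc25 was at 90.4 and 60.3 FPKM against 47.3 and 75.1 FPKM, and Ccdc114 at 7.37 and 4.12 FPKM against 1.12 and 5.80 FPKM, both with overlapping groups. The 95% interval of Armc4, from -2.81 to -1.04, did not meet that of Ccdc151, from 0.37 to 2.38. The difference between the 2 genes was not tested.

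The radial spoke members had the highest summed level of the substructures in every library. Rsph1 and Rsph9 had the highest mean levels of the members, whereas Rsph4a had the lowest of all 49. For each of the 4 tested members both knockout values lay above both wild-type values, as for 22.2% of all genes tested. Their transcripts have 966 to 2354 nt and a GC content of 53.2% to 59.6%. All 3374 genes tested with a GC content of 52% or more had a median log2 change of 0.20. None of the 4 passed the test, against 15.3% of all genes tested. The median log2 change of 0.77 stayed positive in all settings tried (0.50 to 0.999), although Rsph1 alone turned to -0.19 after quantile normalization. Rsph1, a spoke-head protein, was at 2758 and 2180 FPKM in knockout cells and 1666 and 1647 FPKM in wild-type cells, and it made up from 32.9% to 41.2% of the summed FPKM of the 49 members in the 4 libraries. Rsph9, also of the spoke head, was at 638 and 679 FPKM in knockout cells against 370 and 300.0 FPKM in wild-type cells (log2 change 0.98, SE 0.27, BH-adjusted p = 0.0633 in limma). Rsph6a was at 135 and 80.3 FPKM against 26.8 and 46.3 FPKM, the largest positive change of the members at 1.54 (SE 0.42, BH-adjusted p = 0.0620 in limma). For Rsph6a the limma adjusted p lay between 5.51e-07 and 0.430 over 17 alternative settings, past the threshold in 8, and the log2 change between 0.90 and 1.92. Rsph3a, of the spoke stalk, was at 347 and 216 FPKM against 200.3 and 208 FPKM. Its near-identical neighbour Rsph3b was at 300.2 and 163 FPKM against 135 and 165 FPKM, and the split of reads between them is uncertain.

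The nexin-dynein regulatory complex and the ruler proteins Ccdc39 and Ccdc40, which set the spacing of spokes and inner arms, were split in sign. Of 8 tested 0 passed, 4 changes were negative and 4 positive, and 6 had overlapping groups. Over all 9124 genes tested 15.3% passed, 5455 changes were negative and 3574 genes had overlapping groups. Ccdc39 was at 34.2 and 33.7 FPKM in knockout cells against 56.4 and 73.5 FPKM in wild-type cells (log2 change -0.90, SE 0.30, BH-adjusted p = 0.105 in limma). Its partner Ccdc40 was at 7.83 and 4.97 FPKM against 4.54 and 7.51 FPKM. Within the regulatory complex, Iqcd was at 44.6 and 26.1 FPKM in knockout cells and 13.7 and 20.8 FPKM in wild-type cells (log2 change 0.97, SE 0.40, BH-adjusted p = 0.166 in limma). Ccdc65, the most abundant of them, was at 197 and 96.5 FPKM against 186 and 209 FPKM, and Lrrc48 at 83.8 and 37.3 FPKM against 52.1 and 63.7 FPKM. Ccdc164, the base-plate subunit now called Drc1, was at 45.1 and 30.7 FPKM against 25.0 and 49.3 FPKM. Gas8 and Tcte1 also overlapped, with log2 changes of 0.45 and -0.58.

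Of the 7 changes of central pair genes 6 were negative, beside 5455 of all 9124 genes tested. Of the 7, 0 were past the threshold, against 15.3% of all genes tested. Their median log2 change of -0.46 was negative in every setting tried (-0.71 to -0.205). Spef2, a projection protein whose loss in mice shortens the sperm tail, was at 3.49 and 1.18 FPKM in knockout cells and 6.76 and 7.63 FPKM in wild-type cells (log2 change -1.39, SE 0.46, BH-adjusted p = 0.105 in limma). Hydin, a giant projection protein, was at 1.06 and 0.883 FPKM against 2.17 and 3.11 FPKM (log2 change -0.87, SE 0.34, BH-adjusted p = 0.148 in limma). Spag17 was at 19.6 and 24.6 FPKM against 38.3 and 43.9 FPKM (log2 change -0.87, SE 0.31, BH-adjusted p = 0.122 in limma). For these 3 genes both knockout values lay below both wild-type values, as for the kinase Stk36 (5.92 and 5.99 FPKM against 7.09 and 10.3 FPKM). This held for 38.6% of all genes tested. Each of these central pair genes has a transcript of 5245 nt or more. Of the 2008 genes tested with 4000 nt or more, 1444 had negative changes, with a median of -0.43.

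The other central pair genes stood otherwise. Spag16 was at 150.3 and 125 FPKM in knockout cells and 161 and 149 FPKM in wild-type cells, with a 95% interval from -0.85 to 0.50. Spag6 was at 257 and 107 FPKM against 169 and 237 FPKM; RefSeq gives this symbol to a pair of similar genes, Spag6 and Spag6l, so the row cannot be tied to one of them. Spef1, which bundles microtubules, was at 12.1 and 10.6 FPKM in knockout cells against 5.21 and 6.93 FPKM in wild-type cells (log2 change 0.82, SE 0.35, BH-adjusted p = 0.176 in limma).

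The remaining 8 members are further axonemal proteins and adenylate kinases, of which 0 passed, against 15.3% of all genes tested (median log2 change -0.32). Ccdc113 had the narrowest interval of all members, from -0.50 to 0.75, with 445 and 437 FPKM in knockout cells and 418 and 390.0 FPKM in wild-type cells. Ak8, an adenylate kinase, was at 301 and 169 FPKM against 293 and 275 FPKM, and Ak7 at 18.7 and 8.80 FPKM against 15.2 and 19.9 FPKM. Ttc18 (now Cfap70) had the largest negative change of this group, with 18.3 and 9.96 FPKM in knockout cells and 19.7 and 32.1 FPKM in wild-type cells (log2 change -0.85, SE 0.43, BH-adjusted p = 0.240 in limma). Wdr96 and Wdr52 (now Cfap43 and Cfap44), which tether an inner arm, were at 12.9 and 15 FPKM against 15 and 20.4 FPKM, and at 4.56 and 6.09 FPKM against 7.28 and 10.3 FPKM. Wdr16 and Wdr65 had log2 changes of 0.07 and -0.11, with overlapping groups.

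The direction of a member's change went with the length and base composition of its transcript. Lengths and GC content of the longest coding transcript were found for 47 of the 48 members in GENCODE M21. Of the 16 members with transcripts of 4000 nt or more, 14 had negative changes, with a median of -0.50. Among all 2008 genes tested of that length 1444 were negative, with a median of -0.43. Of the 8 members under 2000 nt, 2 were negative, with a median of 0.64. Among all 3494 genes tested of that length 1724 were negative, with a median of 0.02. The 7 heavy chains had a median of -0.45. Across the 47 members Spearman's rho between log2 change and length was -0.52, and with GC content 0.55. Across the 8992 genes tested with a transcript it was -0.15 and 0.35. All points share the same 4 libraries, and these are descriptions. By GC content, the 14 members under 48% had a median of -0.64 beside -0.58 over all genes of that class, and the 23 members at 52% or more had 0.30 beside 0.20. With a correction of each library on length, Armc4 and Dnah7b were lower and Rsph6a and Rsph9 higher at the same threshold, 4.17% of the members in each direction against 15% of all genes lower and 4.94% higher; with a correction on GC content Armc4 alone was called.

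**Figure D5:**
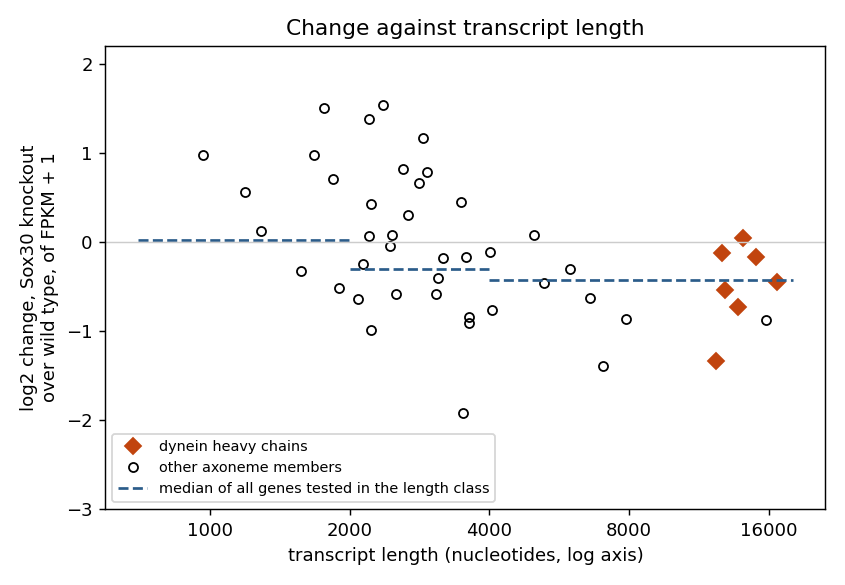
Log2 change of FPKM + 1 (vertical axis, knockout over wild type) against transcript length (horizontal log axis) for 47 members, with the 7 dynein heavy chains as filled diamonds; dashed lines are medians of all genes tested in 3 length classes. Of the 16 members of 4000 nt or more, 14 lie below 0.

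A second list of axonemal genes that are not members was read from the same fit. It held 67 genes, of which 65 had a row and 60 were tested. Of the 60, 7 fell and 2 rose, where 13.4% of all genes tested were called lower and 1.95% higher. The other 51 did not pass, and the median log2 change was 0.01. Medians by substructure were 0.43 (outer arm), 0.95 (inner arm), 0.02 (assembly), -0.01 (radial spoke), 0.37 (regulatory complex) and -0.05 (central pair). Those of the members were, in the same order, -0.31, -0.39, 0.66, 0.77, 0.02 (with the ruler proteins) and -0.46. The deepest falls of the second list were larger than any among the members. Morn3, a MORN-repeat protein, was listed at 0 in both knockout libraries and was at 85.2 and 86.5 FPKM in wild-type cells (BH-adjusted p = 4.8e-04 in limma). Fam166a, a protein of the inside of sperm doublets, was at 1.81 FPKM and listed at 0 in knockout cells, against 130 and 119 FPKM in wild-type cells (BH-adjusted p = 0.00120 in limma). Spag4, a SUN-domain protein of the spermatid nuclear envelope rather than of the central pair, was at 8.95 and 4.16 FPKM against 186 and 207 FPKM (BH-adjusted p = 0.00108 in limma).

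The other falls of that list were smaller. Iqub, of the radial spoke, was at 18.9 and 10.3 FPKM in knockout cells and 60.3 and 69.7 FPKM in wild-type cells (BH-adjusted p = 0.0157 in limma). Fbxl13 (Drc6), a subunit of the regulatory complex, was at 16.4 and 5.47 FPKM against 42.0 and 44.3 FPKM (BH-adjusted p = 0.0496 in limma). Dynll2, a light chain shared with cytoplasmic dynein, was at 27.7 and 31.9 FPKM against 149 and 105 FPKM (BH-adjusted p = 0.00942 in limma), and Hspa1l, a germ-cell HSP70, at 0.773 and 0.10 FPKM against 4.58 and 4.93 FPKM (BH-adjusted p = 0.0184 in limma). The 2 rises were Nme9, at 2.66 and 3.14 FPKM against 0.118 and 0.0846 FPKM (BH-adjusted p = 0.0130 in limma), and Dynlt1a, a dynein light chain with near-identical copies whose value is therefore uncertain, at 757 and 902 FPKM against 329 and 296 FPKM (BH-adjusted p = 0.0195 in limma). Its most abundant members were Meig1, at 5657 and 10080 FPKM in knockout cells and 4712 and 3956 FPKM in wild-type cells (BH-adjusted p = 0.187 in limma), and Ropn1l, at 4332 and 4445 FPKM against 3774 and 3279 FPKM (BH-adjusted p = 0.438 in limma).

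Of 13 known regulators of ciliary or spermatid genes, 9 were tested and 1 passed, Sox30 itself, where 15.3% of all genes tested passed. Among the 9, 4 log2 changes were negative and 5 positive, beside 5455 negative and 3669 positive over all genes tested. Crem, an activator of postmeiotic genes, was at 166 and 114 FPKM in knockout cells and 209 and 167 FPKM in wild-type cells (BH-adjusted p = 0.394 in limma). Tcfl5 was at 85.5 and 67.8 FPKM against 51.4 and 76.2 FPKM (BH-adjusted p = 0.60 in limma). Rfx2, an X-box factor needed for spermatid development in mice, was at 34.8 and 15.1 FPKM against 12.8 and 25.6 FPKM, with overlapping groups (BH-adjusted p = 0.710 in limma). The other RFX factors examined each had both knockout values below both wild-type values, as for 38.6% of all genes tested. Their mean levels were lower than that of Rfx2. Rfx4 was at 5.76 and 7.08 FPKM in knockout cells against 14.1 and 19.7 FPKM in wild-type cells (log2 change -1.26, SE 0.36, unadjusted p = 0.0132 and BH-adjusted p = 0.0714 in limma). Rfx1 was at 1.02 and 1.10 FPKM against 1.17 and 2.94 FPKM (BH-adjusted p = 0.432 in limma). Rfx3, which was below the filter, was at 0.682 and 0.230 FPKM against 1.0 and 1.34 FPKM. Foxj1, Mybl1 and Ccno had both knockout values above both wild-type values, as for 22.2% of all genes tested. Ccno was at 8.44 and 3.13 FPKM against 0.544 and 1.34 FPKM (log2 change 1.71, SE 0.51, unadjusted p = 0.0162 and BH-adjusted p = 0.0824 in limma). Foxj1 was at 3.27 and 3.02 FPKM against 1.03 and 2.40 FPKM, and Mybl1 at 1.27 and 2.39 FPKM against 1.26 and 1.18 FPKM.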

How the data were processed

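The authors deposited FPKM for 23021 rows per library, per the file headers. Tools listed in the submitters' processing notes, with no role or order, are Cufflinks 2.0.2, TopHat2 2.0.6 and Cuffdiff, with the build mm9. Nothing states that counting used strand, and overlapping antisense genes cannot be told apart. Libraries were made with the NEBNext Ultra kit, per the labels' protocols. Rows of 1 symbol were summed (259 symbols). Genes with a mean of at least 1 FPKM were tested on log2(FPKM + 1) with limma 3.58.1 in R 4.3.3 (genotype alone, mean-variance trend, residual df 2, prior df 3.84), two-sided, Benjamini-Hochberg adjusted over all genes tested, threshold 0.05. FPKM were not rescaled. Read counts were not used here, so no counting intervals are given. The fit was tested on simulated data made from the measured levels and spreads. With 200 changed genes it recovered 0.0746% of log2 changes of 1, 12.2% of those of 2 and 68.3% of those of 4. With 1000 changed genes it recovered 10.7%, 63.7% and 91.4%. Most 2-fold changes were thus missed in both cases. Relative depth came from steps between values under 0.5 FPKM (tolerance 0.01 on the log2 scale).

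The members and lists were chosen with earlier results of these data known. Named in full were Sox30, members past the threshold, and in each of 8 substructure groups the 2 members of highest mean FPKM and those with the largest fall and rise; the other members were added for completeness. From the second list and the regulators, those past the threshold and the 2 of highest mean FPKM were named. Among the regulators, the RFX factors, Foxj1, Mybl1 and Ccno were added after their values were seen, as were the paralogs and Rsph3b. Alternatives were other pseudocounts, filters, scalings and empirical Bayes options, each library left out, a replicate block, symbols listed once, and lowess corrections (span 0.3) on GC content and transcript length.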

Additional observations from a re-analysis of the deposited data

How the results depend on the processing

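Armc4 stayed lower with every library left out and kept its call in all settings except without wild-type library 1 or 2. Of 824 alternative values of the 48 members and Sox30, 727 kept direction and side of the threshold, 45 came past it, 5 lost it and 47 changed sign; where no cause is given, it was not tested. With each library left out in turn, genes called ranged from 0 to 3071 lower and from 0 to 984 higher, members from 0 to 10 lower and from 0 to 8 higher. At 0 calls without wild-type library 2, 1180 genes were lower and 232 higher at an unadjusted p under 0.05 in limma. Genes called higher were 113 with a pseudocount of 0.1, 62 with no filter, 273 with median-ratio scaling, 961 with quantile normalization, 444 with the length correction and 414 at an adjusted p under 0.1, against 178; 787 genes were lower at a mean of at least 5 FPKM, where fewer genes were tested, against 1221. Members called lower were 2 with a pseudocount of 5, no trend, the length correction or an adjusted p under 0.1; members called higher were 1 with a pseudocount of 5 or a mean of at least 5 FPKM, 2 with the length correction, 3 with median-ratio scaling, 4 at an adjusted p under 0.1 and 7 with quantile normalization. With the 41 listed symbols alone, 1 was lower and 0 higher. Deviations of same-numbered libraries correlated at -0.20. With 2 libraries per genotype the deviations mirror each other, so this single value cannot show whether the numbers pair them. The replicate block gave 1056 genes lower and 82 higher, and 1 and 0 members. A crossed replicate block, added after the data were seen, gave 1416 and 390 genes, and 1 and 4 members. The members' median became 0.026 with median-ratio scaling and 0.058 with quantile normalization. Medians of substructures that changed sign were 0.21 (outer arm) and 0.031 (inner arm) with quantile normalization, -0.11 and -0.054 (regulatory complex and ruler) with the GC and length corrections, and, over left-out libraries, -0.31 to 0.36 for that group, -0.040 to 1.13 (docking) and -0.55 to 0.049 (other axonemal). Log2 changes that changed sign were, with median-ratio scaling, Dnah17 0.016, Dnah6 0.056, Wdr63 0.036, Lrrc48 0.18, Spag16 0.051 and Wdr65 0.10; with quantile normalization, Dnah17 0.42, Dnah1 0.027, Dnah2 0.035, Dnah6 0.48, Wdr63 0.16, Rsph1 -0.19, Lrrc48 0.23, Stk36 0.081, Wdr65 0.35, Wdr96 0.12, Ccdc113 -0.043 and Ak7 0.034; with the GC correction, Dnah6 0.093, Dnah10 -0.18, Lrrc48 0.014, Ccdc40 -0.24 and Spag16 0.20; and with the length correction, Dnah17 0.005, Dnah6 0.029 and Wdr16 -0.008. Over left-out libraries they were Ak7 -0.91 to 0.10, Ak8 -0.74 to 0.086, Ccdc114 -0.054 to 1.63, Ccdc164 -0.39 to 0.56, Ccdc40 -0.23 to 0.39, Dnah10 -0.20 to 0.29, Dnah17 -0.39 to 0.059, Dnah6 -0.59 to 0.35, Lrrc48 -0.61 to 0.53, Spag6 -0.89 to 0.35, Ttc25 -0.025 to 0.63, Wdr16 -0.50 to 0.63 and Wdr65 -0.64 to 0.42. Leaving out 1 library moved the log2 change by more than 1.5 times for 35 of the 48 members, these 13 included. With 2 libraries per genotype and depth unknown, small differences and low genes are not resolved.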

Other observations

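Knockout library 1 exceeded knockout library 2 for 33 of the 48 members tested (5537 of all 9124 genes tested), and wild-type library 2 exceeded wild-type library 1 for 40 of the 48 (5368 of all). The summed FPKM of the 49 members with a row was 7155 and 5287 in the knockout pair and 4575 and 5004 in the wild-type pair, which was 1.20% and 0.784% of all FPKM in the knockout and 0.806% and 0.999% in the wild type. Those shares overlapped between the genotypes.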
